A study of Homo sapiens with 9 samples.

Results

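YAP, TAZ, the TEAD transcription factors they bind and their best known targets and regulators were examined by RNA-seq in MDA-MB-231 cells that survived a ferroptosis inducer. The 10 genes were YAP1, WWTR1 (the gene of TAZ), TEAD1, TEAD4, CYR61, CTGF, ANKRD1, AMOTL2, LATS2 and NF2, taken by their symbols from the 58735 genes of the count tables. The rule used the symbols and no measured value, but earlier results of these data were known when the members and lists were chosen. MDA-MB-231 is a mesenchymal triple-negative breast cancer line, known to carry a truncating mutation of NF2. Vehicle cells received DMSO, the solvent of the drugs. Erastin-R cells were treated with erastin, which blocks the cystine transporter system xc-, and RSL3-R cells with RSL3, which inhibits the lipid peroxide reductase GPX4. Each of the 3 groups had 3 libraries of the same line. The labels gave neither dose nor duration and did not say whether the libraries came from separate cultures, so the p values measure only the spread between these libraries, which may be technical.

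YAP and TAZ are transcriptional coactivators of the Hippo pathway. When the kinases LATS1 and LATS2 phosphorylate them they are held in the cytoplasm or degraded, and otherwise they enter the nucleus and switch on genes through TEAD factors. Low cell density, a stiff matrix and loss of the scaffold NF2 are known to activate them, and YAP and TAZ activity has been tied to the sensitivity of epithelial cancer cells to ferroptosis. Their activity is set mainly by phosphorylation, location and protein stability, none of which RNA counts measure. Transcript levels of the coactivators and of their targets are therefore separate readouts.

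Libraries held 15405102 to 17273464 counts, and 3 counts corresponded to 0.174 to 0.195 CPM, the count of a gene scaled to a common library size. Correlations of log2 CPM were 0.986 to 0.992 within groups (9 pairs) and 0.959 to 0.972 between groups (27 pairs). Erastin-R replicate 1 stood apart from the other erastin-R libraries on the third principal component, which held 6.71% of the variance (-35.7 against 14.4 and 13.0), and 7.95% of its counts were mitochondrial against 5.55% and 5.84%. The mitochondrial share moved with the groups, at 7.97 to 8.93% in vehicle and 9.52 to 10.2% in RSL3-R libraries, and its part in the results was not tested. Counts given below without this library state so. VIM (1274 to 1581 CPM) and CD44 (231 to 321 CPM) were high in every library, whereas ESR1 had 1 to 12 counts, PGR 0 to 2, EPCAM 15 to 48 and CDH1 6 to 59. Of the markers of other cell types, CD3E had 0 to 4 counts and PTPRC 3 to 24. The endothelial gene PECAM1 had 154 to 177 counts in vehicle, 20 to 36 in erastin-R and 199 to 222 in RSL3-R libraries, and the part of such low-level transcripts in the results was not tested.

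The letters that TEAD factors bind stand in the promoters of several of these genes. TEAD factors recognise GGAATG, which reads CATTCC on the other strand. The RefSeq promoter table (GRCh38.p14) held 10 windows of 250 bases before a start, of 7 of the 10 genes, without TEAD1, TEAD4 and CYR61. These letters stood in 4 of the 10 windows (1 each of CTGF, ANKRD1, AMOTL2 and YAP1), against 11.9% of all 35116 windows of the same length, and 0.94% of all windows held 2 or more matches. The CTGF window held 3 matches, whose first bases were 169, 104 and 95 bases before the start. The ANKRD1 window held 2, at 220 and 128 bases, and the AMOTL2 window at its inner start held 1, at 69 bases. The CTGF and LATS2 windows are shown because CTGF held the most matches and LATS2, another gene of the target list, held none. Capitals mark the TEAD letters.
CTGF, chr6:131951374-131951622, minus strand: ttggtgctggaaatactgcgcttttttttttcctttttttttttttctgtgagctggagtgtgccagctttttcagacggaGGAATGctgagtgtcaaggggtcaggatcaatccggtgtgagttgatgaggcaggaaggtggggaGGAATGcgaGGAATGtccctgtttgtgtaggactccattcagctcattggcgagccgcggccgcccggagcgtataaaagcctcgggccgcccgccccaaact
LATS2, chr13:21061587-21061836, minus strand: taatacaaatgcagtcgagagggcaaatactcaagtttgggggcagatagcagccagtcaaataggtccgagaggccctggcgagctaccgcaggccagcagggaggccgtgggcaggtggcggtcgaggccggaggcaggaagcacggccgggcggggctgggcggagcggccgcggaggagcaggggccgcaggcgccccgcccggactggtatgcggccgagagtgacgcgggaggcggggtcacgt
Matches in ANKRD1, AMOTL2 and YAP1 are shown with 12 bases on each side. The downstream match of ANKRD1 and that of AMOTL2 lie in an exon of GENCODE 29, whose starts are further upstream than those of RefSeq.
ANKRD1 upstream match, chr10:90921290-90921319, minus strand: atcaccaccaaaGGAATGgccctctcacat
ANKRD1 downstream match, chr10:90921198-90921227, minus strand: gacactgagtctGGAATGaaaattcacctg
AMOTL2 match, chr3:134374499-134374528, minus strand: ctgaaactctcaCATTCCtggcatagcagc
YAP1 match, chr11:102110273-102110302, plus strand: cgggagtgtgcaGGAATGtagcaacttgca
The AP-1 letters TGANTCA, which read the same on both strands and do not overlap these matches, stood in 1 of the 10 windows (ANKRD1, 195 bases before the start) and in 6.57% of all windows. Such matches are letters in a sequence and were not measured as binding sites.

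Per unit of transcript length, CYR61, CTGF and ANKRD1 stood above the coactivators YAP1 and WWTR1. In vehicle cells the targets AMOTL2 and LATS2 did not stand above YAP1. In the authors' FPKM values, vehicle cells held 549 ± 24.1 of CYR61 (SD, n = 3 here and below), 138 ± 2.37 of CTGF and 113 ± 3.52 of ANKRD1. YAP1 (37.6 ± 1.38 FPKM), TEAD1 (35.9 ± 2.11 FPKM) and AMOTL2 (33.3 ± 0.138 FPKM) followed, and YAP1 and TEAD1 differed by less than the SD of TEAD1. WWTR1 stood at 27.0 ± 1.38 FPKM, TEAD4 at 10.2 ± 0.733 FPKM, LATS2 at 9.03 ± 0.215 FPKM and NF2 lowest at 1.40 ± 0.175 FPKM. In both treated groups CYR61, CTGF and ANKRD1 remained the highest 3 members and NF2 the lowest in mean FPKM. AMOTL2 stood above YAP1 there, at 39.6 ± 2.02 against 34.2 ± 2.09 FPKM in erastin-R cells. In RSL3-R cells it stood at 46.1 ± 0.594 against 31.5 ± 1.19 FPKM. CTGF averaged 276 ± 18.0 FPKM in erastin-R and 209 ± 4.46 FPKM in RSL3-R cells, where ANKRD1 stood at 213 ± 4.07 FPKM, less than 1 SD away.

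Erastin-R cells held more transcript of the classical targets and less of TAZ than vehicle cells. Of the 10 members, 6 were higher (CYR61, CTGF, LATS2, NF2, ANKRD1 and AMOTL2), 1 was lower (WWTR1) and 3 did not pass an adjusted p of 0.05 (YAP1, TEAD1 and TEAD4). Among all 16188 genes tested, 54% passed in either direction, 27.1% higher and 26.8% lower. CYR61 and CTGF passed together with a fold change of at least 2, as did 13.4% of all genes. The median log2 fold change was 0.30 over the members and -0.0042 over all genes. Without erastin-R replicate 1, 6 members were higher and 2 lower, and the number of all genes passing went from 8735 to 9865 (4884 higher and 4981 lower). All 3 erastin-R libraries lay outside the vehicle range for 8 members, as for 57.9% of all genes. In these bulk libraries, fewer cells expressing a gene and less of its RNA per cell cannot be told apart.

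RSL3-R cells held more of the targets as well, with less of both coactivators and both TEAD members than vehicle cells. Here 5 members were higher (CYR61, ANKRD1, CTGF, LATS2 and AMOTL2), 4 were lower (TEAD4, WWTR1, TEAD1 and YAP1) and NF2 did not pass. The background was 48.7% of all genes, 23.8% higher and 24.9% lower. Only CYR61 among the members also reached a fold change of 2, against 10.1% of all genes. The median log2 fold change was 0.26 over the members and 0.0052 over all genes. All RSL3-R libraries lay outside the vehicle range for 9 members, as for 61.9% of all genes. The comparisons with vehicle share the same 3 vehicle libraries, so they are not independent.

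**Figure D1:**
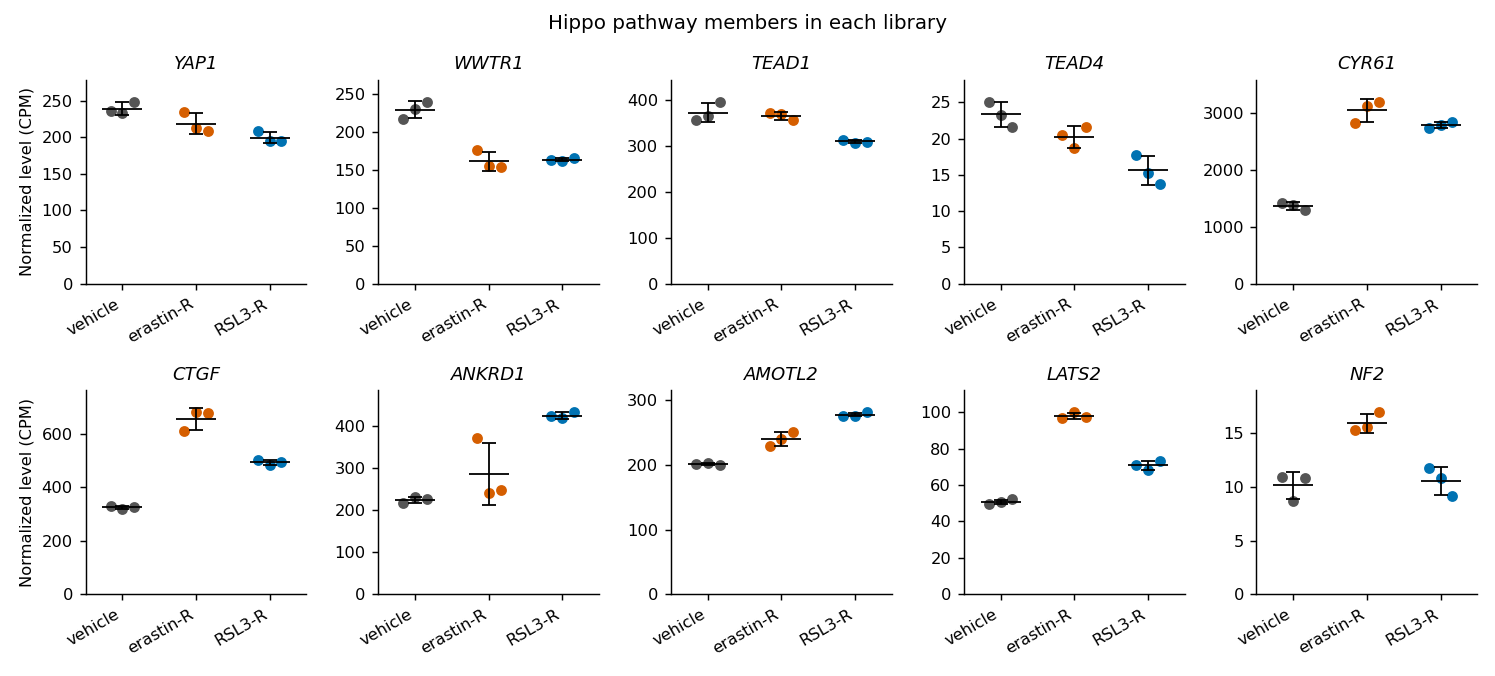
CPM of each of the 10 members in the 9 libraries, 1 panel a gene, with points for libraries and black lines for the group mean ± SD. CYR61, CTGF and LATS2 libraries of both treated groups lie above the vehicle libraries, WWTR1 libraries lie below them, and erastin-R replicate 1 stands above its group in ANKRD1.

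Of the coactivators, YAP is encoded by YAP1 (ENSG00000137693, GRCh38 chr11:102110461-102233423). YAP1 stood at 235.6, 233.6 and 248.8 CPM in the vehicle libraries, 234.9, 212.9 and 208.1 CPM in erastin-R and 208.6, 195.4 and 195.3 CPM in RSL3-R libraries. All RSL3-R libraries lay below all vehicle libraries, while an erastin-R library lay within the vehicle range. YAP1 fell by 16.6% in RSL3-R cells relative to vehicle (log2 fold change -0.26 ± 0.06, SE, adjusted p = 0.00323). Erastin-R cells gave -0.13 ± 0.06 (adjusted p = 0.0903), and -0.19 (adjusted p = 0.00138) without erastin-R replicate 1. With quantile normalization the erastin-R value was -0.16 (adjusted p = 0.0359).

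WWTR1 (ENSG00000018408, chr3:149517235-149736714), the gene of TAZ, fell in both treated groups. It had 217.8, 230.5 and 240.3 CPM in vehicle, 176.1, 155.5 and 153.4 CPM in erastin-R and 163.8, 162.0 and 165.3 CPM in RSL3-R libraries. No treated library reached the lowest vehicle library. Erastin-R cells held 29.6% less (log2 fold change -0.51 ± 0.07, adjusted p = 1.90e-05) and RSL3-R cells 28.7% less (-0.49 ± 0.07, adjusted p = 3.06e-05). Between the treated groups it was 0.02 ± 0.07 (adjusted p = 0.844), with overlapping libraries. An antisense gene, WWTR1-AS1, shares 9.45% of the exonic bases of WWTR1 and had at most 7 counts in any library.

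Of the DNA-binding partners, TEAD1 (ENSG00000187079, chr11:12674591-12944483) stood above TEAD4 per unit of length in every group. It stood at 357.5, 364.7 and 397.1 CPM in vehicle, 371.8, 369.8 and 356.0 CPM in erastin-R and 314.4, 307.2 and 308.7 CPM in RSL3-R libraries. RSL3-R libraries were lower than every other library, and vehicle and erastin-R libraries overlapped. RSL3-R cells held 16.9% less than vehicle cells (log2 fold change -0.27 ± 0.06, adjusted p = 0.00134), erastin-R cells gave -0.03 ± 0.06 (adjusted p = 0.694), and RSL3-R cells were lower than erastin-R cells by the direct test (-0.24 ± 0.06, adjusted p = 0.00299). The sign of the erastin-R value turned with the scaling and with 1 vehicle library, as given with the processing alternatives.

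TEAD4 (ENSG00000197905, chr12:2959330-3040673) showed 25.1, 23.3 and 21.7 CPM in vehicle, 20.4, 18.6 and 21.6 CPM in erastin-R and 17.8, 15.3 and 13.8 CPM in RSL3-R libraries. The 3 groups did not overlap. TEAD4 fell in RSL3-R cells (log2 fold change -0.58 ± 0.11, adjusted p = 6.44e-04), to a level 33.2% lower than in vehicle. In erastin-R cells the value was -0.21 ± 0.11 (adjusted p = 0.123). The direct difference between the treated groups was -0.37 ± 0.11 (adjusted p = 0.0131), and it did not pass without erastin-R replicate 3 (-0.32, adjusted p = 0.0518) or without RSL3-R replicate 3 (-0.26, adjusted p = 0.110).

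Among the targets, CYR61 (ENSG00000142871, chr1:85580761-85583962) encodes a matricellular protein that binds integrins and is a standard readout of YAP. Vehicle libraries held 1408, 1385 and 1291 CPM, erastin-R libraries 2812, 3116 and 3193 CPM, and RSL3-R libraries 2732, 2787 and 2832 CPM. The treated libraries lay above the vehicle libraries by a wide margin and overlapped with each other. The level was 2.23-fold higher in erastin-R cells (log2 fold change 1.16 ± 0.06, adjusted p = 5.02e-09) and 2.04-fold higher in RSL3-R cells (1.03 ± 0.06, adjusted p = 1.08e-08). RSL3-R against erastin-R gave -0.13 ± 0.06 (adjusted p = 0.0919), and -0.18 (adjusted p = 2.28e-04) without erastin-R replicate 1.

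CTGF (ENSG00000118523, chr6:131948176-131951373) encodes a related matricellular protein tied to fibrosis, and its promoter held the 3 TEAD matches shown above. It had 329.9, 319.5 and 327.3 CPM in vehicle, 609.1, 680.7 and 676.5 CPM in erastin-R and 502.1, 482.5 and 495.9 CPM in RSL3-R libraries. The 3 groups were separate, with erastin-R highest. CTGF was 2.01-fold higher in erastin-R cells (log2 fold change 1.01 ± 0.06, adjusted p = 1.08e-08) and 1.52-fold higher in RSL3-R cells (0.60 ± 0.06, adjusted p = 1.33e-06). RSL3-R cells stood 24.7% below erastin-R cells (-0.41 ± 0.06, adjusted p = 5.08e-05).

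ANKRD1 (ENSG00000148677, chr10:90912096-90921276), which encodes a nuclear ankyrin repeat protein that responds to stretch, had the opposite order. It stood at 217.7, 231.5 and 226.0 CPM in vehicle and 424.0, 418.6 and 432.8 CPM in RSL3-R libraries. In erastin-R libraries it stood at 371.4, 240.6 and 248.3 CPM, replicate 1 being far above the others. RSL3-R cells held 1.89-fold more than vehicle cells (log2 fold change 0.92 ± 0.12, adjusted p = 3.26e-05) and 1.48-fold more than erastin-R cells (0.57 ± 0.12, adjusted p = 0.00162). The erastin-R value rested on replicate 1, being 0.35 ± 0.12 (adjusted p = 0.0267) with it and 0.12 (adjusted p = 0.0221) without it. It did not pass when any 1 of the vehicle libraries was left out (adjusted p = 0.0511 to 0.0805). Without erastin-R replicate 1 the difference between RSL3-R and erastin-R cells was 0.80.

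**Figure D2:**
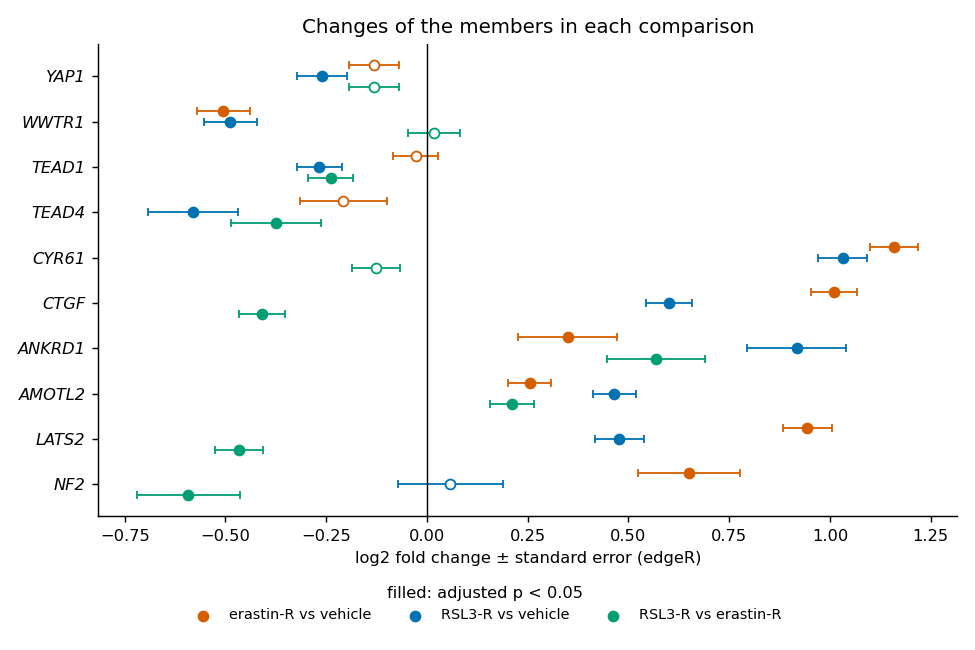
Log2 fold changes of the 10 members with standard errors in the 3 comparisons, filled points having an adjusted p under 0.05. CTGF and LATS2 have their largest value in erastin-R against vehicle, while ANKRD1 and AMOTL2 have theirs in RSL3-R against vehicle.

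Of the members that restrain YAP and TAZ, AMOTL2 and LATS2 are themselves targets and form a negative feedback, and NF2 acts upstream. AMOTL2 (ENSG00000114019, chr3:134355874-134375479), an angiomotin that holds YAP at junctions and in the cytoplasm, had 200.8, 202.4 and 200.6 CPM in vehicle, 228.9, 240.2 and 251.2 CPM in erastin-R and 276.1, 276.1 and 281.3 CPM in RSL3-R libraries. The 3 groups did not overlap and RSL3-R was highest. Log2 fold changes were 0.25 ± 0.05 in erastin-R cells (adjusted p = 0.00124), 0.47 ± 0.05 in RSL3-R cells (adjusted p = 8.71e-06) and 0.21 ± 0.05 between them (adjusted p = 0.00523).

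LATS2 (ENSG00000150457, chr13:20973032-21061547), the kinase that phosphorylates YAP and TAZ, had 49.8, 50.8 and 52.1 CPM in vehicle, 96.6, 99.9 and 97.4 CPM in erastin-R and 71.1, 68.4 and 73.1 CPM in RSL3-R libraries. Each group occupied a narrow range of its own, with the same order as CTGF. The level was 1.92-fold higher in erastin-R cells (log2 fold change 0.94 ± 0.06, adjusted p = 3.07e-08) and 1.39-fold higher in RSL3-R cells (0.48 ± 0.06, adjusted p = 2.06e-05). RSL3-R cells stood 27.6% below erastin-R cells (-0.47 ± 0.06, adjusted p = 2.51e-05). Its paralog LATS1 gave -0.10 under erastin (adjusted p = 0.326) and 0.16 under RSL3 (adjusted p = 0.137).

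NF2 (ENSG00000186575, chr22:29603556-29698598) encodes merlin, the scaffold that recruits LATS kinases to the membrane. It was the least abundant member, with 10.97, 8.71 and 10.8 CPM in vehicle, 15.3, 15.6 and 16.96 CPM in erastin-R and 11.7, 10.9 and 9.18 CPM in RSL3-R libraries. Erastin-R libraries lay above all others, and vehicle and RSL3-R libraries overlapped. NF2 was 1.57-fold higher in erastin-R cells (log2 fold change 0.65 ± 0.13, adjusted p = 6.59e-04), and RSL3-R cells stood below erastin-R cells (-0.59 ± 0.13, adjusted p = 0.00156). RSL3-R against vehicle gave 0.06 ± 0.13 (adjusted p = 0.740), a value near 0 whose sign changed when single libraries were left out.

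Between the treated groups the members differed in both directions. In RSL3-R against erastin-R cells, 2 members were higher (ANKRD1 and AMOTL2), 5 were lower (NF2, LATS2, CTGF, TEAD4 and TEAD1) and 3 did not pass (YAP1, WWTR1 and CYR61). No member reached a fold change of 2, which 10.3% of all genes did. Of all genes, 49.2% passed, 22.3% higher and 26.9% lower, and the median log2 fold change was -0.18 over the members and -0.024 over all genes. Without erastin-R replicate 1 there were 2 higher and 6 lower members, CYR61 being the addition, and the number of all genes passing went from 7969 to 9376.

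The genes whose log2 CPM over the 9 libraries were most like those of 3 members were found by Pearson correlation among the protein-coding genes tested. The libraries fall into 3 groups, so these values follow group differences and describe likeness only. YAP1 was most like RPE (r = 0.996), PRELID2 (0.983) and DSG2 (0.980). CTGF was most like SLC2A3, UVSSA and NPC1 (each r = 0.998). CYR61 was most like ABHD4 (r = 0.997), MAPK8IP3 (0.996) and GADD45A (0.996), the last being a gene of the target list.

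The wider target list held 22 genes in common use as a YAP and TAZ signature, 5 of which are members. All 22 passed the filter on low counts. In erastin-R cells 15 were higher, 1 was lower and 6 did not pass, and in RSL3-R cells 14 were higher, none was lower and 8 did not pass, beside the background of 27.1% and 23.8% of all genes higher. Without erastin-R replicate 1 the counts were 16 higher and 1 lower in erastin-R cells and 15 higher and 1 lower in RSL3-R cells. The median log2 fold changes were 0.36 and 0.44. In erastin-R and RSL3-R cells 3 genes and 1 gene reached a fold change of 2, beside 13.4% and 10.1% of all genes. These were CYR61, CTGF and GADD45A in erastin-R cells and CYR61 in RSL3-R cells. The 5 members were higher in both groups, so the counts and medians of this list partly repeat the results of the members.

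GADD45A, a growth arrest gene, stood at 52.9, 51.6 and 48.2 CPM in vehicle, 94.8, 102.9 and 110.1 CPM in erastin-R and 87.6, 93.5 and 90.5 CPM in RSL3-R libraries. The treated libraries were all above vehicle, with log2 fold changes of 1.01 ± 0.07 (adjusted p = 6.80e-08) and 0.83 ± 0.07 (adjusted p = 4.73e-07). CRIM1, a transmembrane protein that binds bone morphogenetic proteins, rose by 0.78 in both (adjusted p = 3.33e-08 and 3.29e-08). AXL, a receptor tyrosine kinase, rose by 0.58 under erastin and by 0.40 under RSL3 (adjusted p = 2.01e-06 and 7.32e-05). IGFBP3, a binding protein of insulin-like growth factors, rose by 0.62 and 0.82 (adjusted p = 1.01e-05 and 7.79e-07), and the ligand TGFB2 by 0.53 and 0.63 (adjusted p = 5.34e-05 and 1.33e-05). RBMS3, an RNA-binding protein, rose by 0.53 and 0.85 (adjusted p = 4.77e-04 and 8.59e-06).

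Not all targets moved alike. F3, tissue factor, had 173.2, 175.2 and 174.6 CPM in vehicle, 212.1, 175.3 and 174.5 CPM in erastin-R and 252.0, 254.7 and 257.6 CPM in RSL3-R libraries. F3 rose by 0.55 on the log2 scale under RSL3 (adjusted p = 2.52e-05), and the erastin-R value was 0.10 (adjusted p = 0.238), where only replicate 1 stood above vehicle. NT5E, the ecto-enzyme CD73, had 760.5, 775.3 and 821.6 CPM in vehicle, 656.4, 613.3 and 623.0 CPM in erastin-R and 1086, 1001 and 1075 CPM in RSL3-R libraries. It was the 1 target that fell in erastin-R cells (-0.32 ± 0.06, adjusted p = 3.42e-04) and it rose in RSL3-R cells (0.42 ± 0.06, adjusted p = 3.31e-05). In the direct comparison 6 targets were higher and 8 lower in RSL3-R than in erastin-R cells, beside 22.3% and 26.9% of all genes, NT5E (0.74) being the largest increase and FOXF2 (-0.63) the largest decrease among targets passing. Without erastin-R replicate 1 these counts were 7 and 10.

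**Figure D3:**
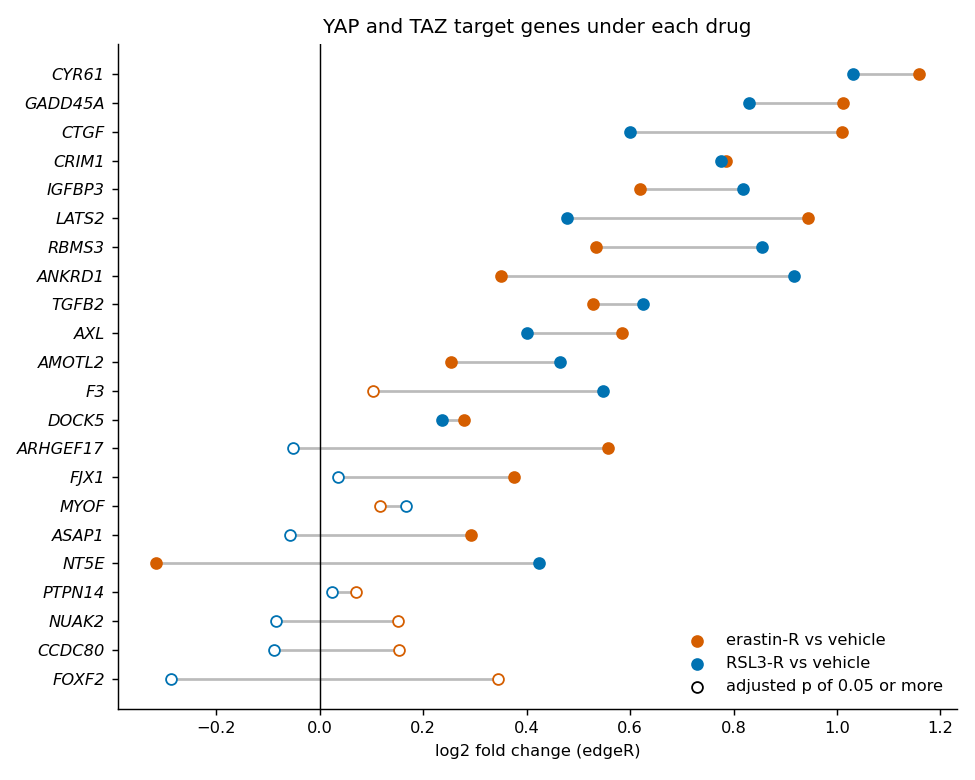
Log2 fold changes against vehicle of the 22 target genes in erastin-R and RSL3-R cells, with open points for an adjusted p of 0.05 or more. Most points lie to the right of 0, CYR61 has the largest mean of both, and NT5E has a negative value in erastin-R and a positive one in RSL3-R cells.

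Among the TEAD factors and cofactors, the members already given were joined by TEAD2, TEAD3 and 4 VGLL genes, which encode proteins that bind TEAD factors in competition with or beside YAP. VGLL1 and VGLL2 were at 0 counts in every library. Of the 8 genes tested, 2 were higher and 3 lower in erastin-R cells (27.1% and 26.8% of all genes), and 1 was higher and 5 lower in RSL3-R cells (23.8% and 24.9% of all genes). The median log2 fold changes were -0.17 and -0.26. VGLL3 had 40.2, 38.2 and 46.1 CPM in vehicle, 103.2, 105.5 and 93.7 CPM in erastin-R and 67.0, 63.1 and 61.9 CPM in RSL3-R libraries. It had the largest change of the list, at 1.28 ± 0.08 (adjusted p = 2.52e-08) and 0.63 ± 0.08 (adjusted p = 2.39e-05), and the groups did not overlap.

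TEAD3 had 54.5, 46.4 and 49.9 CPM in vehicle, 81.3, 92.5 and 90.3 CPM in erastin-R and 49.5, 63.2 and 57.4 CPM in RSL3-R libraries. It rose in erastin-R cells (0.81 ± 0.09, adjusted p = 6.68e-06), while RSL3-R cells overlapped with vehicle (0.17 ± 0.09, adjusted p = 0.145). TEAD2 fell by 0.27 in erastin-R cells (adjusted p = 0.0190) and by 0.50 in RSL3-R cells (adjusted p = 3.98e-04). The erastin-R value of TEAD2 did not pass without vehicle replicate 1, vehicle replicate 2 or erastin-R replicate 2 (adjusted p = 0.0502, 0.0885 and 0.0873), and the RSL3-R value of TEAD3 passed without erastin-R replicate 1 or RSL3-R replicate 1 (adjusted p = 0.0426 and 0.0398). VGLL4, a TEAD-binding repressor, had 37.2, 34.2 and 32.6 CPM in vehicle, 20.5, 23.3 and 22.1 CPM in erastin-R and 34.0, 35.9 and 34.7 CPM in RSL3-R libraries. It fell in erastin-R cells (-0.66 ± 0.08, adjusted p = 1.79e-05), and the RSL3-R value was 0.01 (adjusted p = 0.940). ATG7 lies opposite VGLL4 and shares 22.1% of its exonic bases, with 599 to 881 counts, and whether the authors' counting used strand is not stated.

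The Hippo kinases and scaffolds, which act upstream of YAP and TAZ, numbered 23 and all passed the filter. In each treated group 10 were higher, 3 were lower and 10 did not pass against vehicle, with median log2 fold changes of 0.21 and 0.16 and no fold change of 2. The numbers passing in either direction are close to the shares of all genes that passed, 54% and 48.7%. By direction, 27.1% and 23.8% of all genes were higher and 26.8% and 24.9% lower. Without erastin-R replicate 1 the counts of this list were 10 higher and 5 lower for erastin-R and 11 higher and 4 lower for RSL3-R. WWC1 (KIBRA), a partner of NF2, had 39.8, 38.6 and 37.2 CPM in vehicle, 69.6, 66.7 and 70.7 CPM in erastin-R and 40.6, 39.8 and 38.7 CPM in RSL3-R libraries. Like NF2, its erastin-R libraries lay above all others (0.84 ± 0.07, adjusted p = 1.78e-07), and the RSL3-R value was 0.04 (adjusted p = 0.625). Its paralog WWC2 rose by 0.54 in erastin-R cells and by 0.42 in RSL3-R cells (adjusted p = 2.67e-05 and 2.66e-04). FRMD6, a scaffold at the membrane, rose by 0.50 under erastin and by 0.65 under RSL3 (adjusted p = 4.55e-06 and 4.14e-07). The kinase STK4 (MST1) rose by 0.25 in erastin-R cells and by 0.48 in RSL3-R cells (adjusted p = 0.00496 and 3.85e-05).

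Of the 12 proteins that bind YAP, TAZ or LATS and hold them inactive or mark them for degradation, 11 were tested and AMOT was not. In erastin-R cells 6 were higher and 3 lower, and in RSL3-R cells 3 were higher and 3 lower, with medians of 0.24 and 0.02. Of all genes, 54% and 48.7% passed, and the RSL3-R count is close to that share. The LIM proteins LIMD1, AJUBA and WTIP, all higher in erastin-R cells, inhibit LATS and not YAP or TAZ. The counts and medians therefore mix opposite roles. CSNK1E, a casein kinase that primes YAP and TAZ for degradation, rose in erastin-R cells (1.003 ± 0.08, adjusted p = 1.40e-07) and by 0.25 in RSL3-R cells (adjusted p = 0.0164). WTIP, a LIM protein that inhibits LATS, rose by 0.87 in erastin-R cells (adjusted p = 2.28e-04) and gave 0.17 in RSL3-R cells (adjusted p = 0.400). Its relative AJUBA rose by 0.42 in erastin-R cells and by 0.57 in RSL3-R cells (adjusted p = 0.00728 and 0.00118). The erastin-R libraries of AJUBA overlapped with vehicle. YWHAQ, of the protein family that retains phosphorylated YAP in the cytoplasm, fell by 0.60 under erastin and by 0.82 under RSL3 (adjusted p = 5.33e-07 and 2.82e-08). AMOTL1 fell in erastin-R and RSL3-R cells (-0.35 and -0.33, adjusted p = 1.87e-04 and 3.48e-04), while AMOTL2 rose in both.

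Of 8 genes described between YAP or TAZ and ferroptosis 6 were tested, and NOX4 and CYBB, both NADPH oxidases, were not. In erastin-R cells 4 were lower, none was higher and 2 did not pass, and in RSL3-R cells 3 were higher and 3 lower. The medians were -0.60 and -0.38, and 26.8% and 24.9% of all genes were lower. TFRC, the transferrin receptor that brings in iron, had 722.1, 715.3 and 729.7 CPM in vehicle, 473.4, 485.3 and 456.7 CPM in erastin-R and 328.2, 311.8 and 307.1 CPM in RSL3-R libraries. The groups did not overlap, and log2 fold changes were -0.61 ± 0.05 (adjusted p = 4.16e-07) and -1.19 ± 0.05 (adjusted p = 7.31e-10).

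SKP2, a ubiquitin ligase subunit, fell by 0.78 under erastin and by 1.32 under RSL3 (adjusted p = 5.77e-06 and 5.82e-08). ANGPTL4, a secreted lipase inhibitor placed between TAZ and NOX2 in ferroptosis, fell by 1.38 and by 1.07 (adjusted p = 1.15e-06 and 1.26e-05). ACSL4, which loads polyunsaturated fatty acids into membrane lipids, gave 0.15 in erastin-R cells (adjusted p = 0.101) and rose by 0.31 in RSL3-R cells (adjusted p = 0.00244). Its erastin-R value passed without vehicle replicate 3 (0.21, adjusted p = 0.0333) or without erastin-R replicate 3 (0.20, adjusted p = 0.0382). EMP1, a membrane protein, had 445.1, 442.0 and 455.3 CPM in vehicle, 380.8, 346.4 and 357.0 CPM in erastin-R and 612.8, 603.2 and 619.6 CPM in RSL3-R libraries. It fell in erastin-R cells (-0.31 ± 0.05, adjusted p = 2.67e-04) and rose in RSL3-R cells (0.45 ± 0.05, adjusted p = 1.06e-05). CDH1, the epithelial cadherin, rose in RSL3-R cells (1.58 ± 0.33, adjusted p = 0.0013) from 14 to 27 counts a library in vehicle to 53 to 59 counts, a level under 4 CPM.

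Cytoskeletal targets of SRF and its MRTF cofactors also respond to mechanical cues. Of 14 tested (CNN1 was not), 3 were higher and 6 lower in erastin-R cells and 3 higher and 9 lower in RSL3-R cells, with medians of -0.09 and -0.38. Of all genes, 26.8% were lower under erastin and 24.9% under RSL3, and 54% and 48.7% passed in either direction. TAGLN2 fell by 1.77 in erastin-R cells and by 0.98 in RSL3-R cells (adjusted p = 2.99e-10 and 2.70e-08). MYL9, a myosin light chain, fell in both groups (-0.99 and -1.119, adjusted p = 1.39e-07 and 4.56e-08). FHL2 went the other way and rose by 0.84 in erastin-R cells (adjusted p = 1.79e-06). Its RSL3-R libraries (85.5, 83.5 and 78.9 CPM) also lay above the vehicle libraries (70.8, 69.9 and 70.6 CPM). ACTB gave -0.36 and -0.67 (adjusted p = 4.12e-04 and 1.78e-06), but with quantile normalization it gave -0.0038 (adjusted p = 0.989) and -0.41 (adjusted p = 0.0972).

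AP-1 factors, which share enhancers with TEAD factors, numbered 8. In erastin-R cells 7 were higher and 1 lower, and in RSL3-R cells 5 were higher, 1 lower and 2 did not pass, with medians of 0.75 and 0.38. Of all genes, 27.1% and 23.8% were higher. ATF3, a stress-induced factor, had 4.29, 6.55 and 4.56 CPM in vehicle, 15.4, 18.4 and 18.7 CPM in erastin-R and 16.2, 19.9 and 16.8 CPM in RSL3-R libraries. Its treated libraries lay above vehicle by 1.77 ± 0.16 and 1.78 ± 0.16 on the log2 scale (adjusted p = 6.69e-07 and 7.14e-07). JUNB rose by 1.19 and 1.20 (adjusted p = 5.65e-08 and 4.80e-08), and HOOK2 on the other strand shares 14.2% of its exonic bases. FOSL2 had 156.5, 166.5 and 149.5 CPM in vehicle, 169.0, 191.8 and 189.5 CPM in erastin-R and 89.5, 95.6 and 92.6 CPM in RSL3-R libraries. It rose by 0.22 in erastin-R cells (adjusted p = 0.0121) and fell by 0.77 in RSL3-R cells (adjusted p = 6.02e-07). The erastin-R value did not pass without vehicle replicate 3 (0.18, adjusted p = 0.0563) or without erastin-R replicate 2 (0.19, adjusted p = 0.0505). FOSL1 rose by 0.66 in erastin-R cells (adjusted p = 5.62e-07) and gave -0.05 in RSL3-R cells (adjusted p = 0.495).

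**Figure D4:**
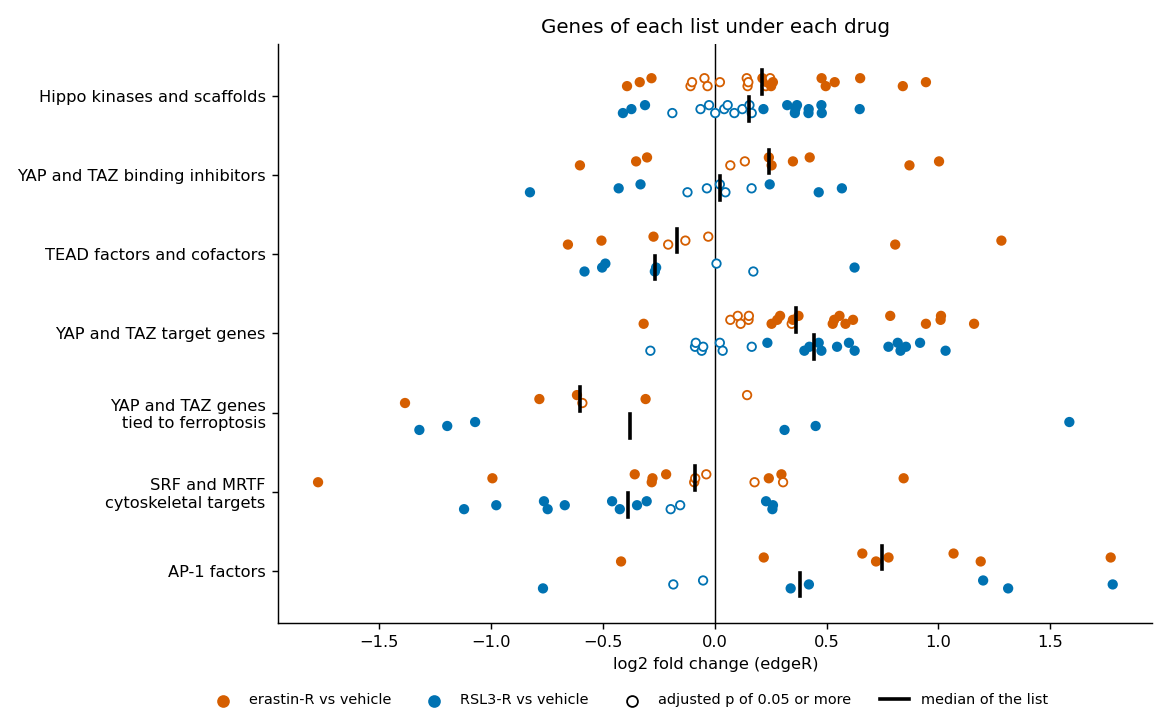
Log2 fold changes against vehicle of the tested genes of each list, 1 point a gene, with open points for an adjusted p of 0.05 or more and black bars for the medians. The medians of the target genes (0.36 and 0.44) and of the AP-1 factors (0.75 and 0.38) lie above 0, and those of the genes tied to ferroptosis (-0.60 and -0.38) below it. Some of the members are among the target genes.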

How the data were processed

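The series holds 9 RNA-seq libraries of MDA-MB-231 cells, 3 a group, and the labels gave each library its group and replicate number. The authors deposited raw read counts per gene for each library, from uniquely mapped reads in exons per the methods, with HISAT2 2.0.5 and featureCounts 1.5.0-p3 named in the submitters' processing notes. Whether counting used strand is not given in the sources used here. All 58735 identifiers and coordinates matched GENCODE 29 (GRCh38). FPKM values, computed by the authors with library sizes 0.990 to 1.035 times the total count, were deposited beside the counts and used here only to compare levels between genes.

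Differences were tested with the quasi-likelihood test of edgeR 4.0.16 (in R 4.3.3) on genes kept by filterByExpr, in 1 model of the 9 libraries scaled by TMM and without covariates, with Benjamini-Hochberg adjustment over the 16188 genes tested. A gene was said to rise or fall at an adjusted p under 0.05, and a fold change of at least 2 (absolute log2 fold change of 1) was stated separately. The CPM values printed were scaled by the same TMM factors. Log2 CPM for correlations used a prior count of 3. The common biological coefficient of variation was 8.56%. The squared differences between libraries of a group were 2.43 to 24.1 times those of counting error, so no library was a copy of another. Pairs with erastin-R replicate 1 gave 24.1 and 23.4, and the other pairs at most 5.28. These ratios do not tell whether libraries came from separate cultures. Tests were also run on simulated counts in which far fewer genes changed than passed here, so that run is not used as support. Intervals of 3 counts cover counting error only.

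The members and lists were chosen with earlier results of these data known, so neither is independent evidence of a direction. All members were named. Genes of each other list were picked from the up to 4 a comparison with the largest absolute log2 fold change. That ranking was among genes with an adjusted p under 0.05 whose libraries did not overlap. Not all of these were named, so the genes given are a selection. The 3 genes most alike were named for YAP1, CTGF and CYR61. CRIM1, AXL, IGFBP3, TGFB2, F3, ACSL4 and LATS1, and second comparisons of named genes, were added after their values were seen. Promoters came from RefSeq. Alternatives were DESeq2 1.42.0, quantile normalization with limma 3.58.1, no filter, a minimum fold change, a block for replicate number, a model of the groups compared and leaving out single libraries.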

Additional observations from a re-analysis of the deposited data

Results flagged for a closer look

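The difference between RSL3-R and erastin-R cells was tested directly with edgeR's quasi-likelihood test, and 3 genes of the lists had opposite signs against vehicle, each sign past an adjusted p of 0.05. NT5E differed by 0.7404 on the log2 scale (-0.3168 for erastin-R and 0.4236 for RSL3-R, adjusted p of the difference 2.94e-07). EMP1 differed by 0.7596 (-0.3082 and 0.4514, adjusted p 1.31e-07). FOSL2 differed by -0.9862 (0.2197 and -0.7665, adjusted p 8.87e-08), and its erastin-R value did not pass without vehicle replicate 3 (adjusted p = 0.0563) or without erastin-R replicate 2 (adjusted p = 0.0505). In all of them the 3 RSL3-R libraries lay outside the range of the 3 erastin-R libraries. No member showed this pattern. Of all genes, 54% passed in erastin-R cells, 48.7% in RSL3-R cells and 49.2% in the direct comparison. The share of all genes with opposite signs was not counted, so the pattern may be common.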

How the results depend on the processing

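Of 30 values of the members (10 genes in 3 comparisons), those whose sign turned were within 0.06 of 0 in the analysis as reported. They were WWTR1 in RSL3-R against erastin-R (-0.0098 without erastin-R replicate 2, and -0.0189 to 0.0836 over all libraries left out), TEAD1 in erastin-R against vehicle (0.0342 with quantile normalization, and -0.0592 to 0.0190 over libraries left out) and NF2 in RSL3-R against vehicle (-0.0205 without RSL3-R replicate 1, and -0.0404 to 0.1912 over libraries left out). Outside the members, VGLL4 in RSL3-R against vehicle turned from 0.01 to -0.0029 without a filter, -0.0124 without RSL3-R replicate 2, and -0.0339 to 0.0659 over libraries left out. DESeq2 and quantile normalization called 7 and 8 members for erastin-R, 9 and 9 for RSL3-R and 7 and 7 between them. Leaving out each library in turn gave 6 to 8, 9 and 6 to 8. ANKRD1 in erastin-R cells did not pass in the model of the groups compared (0.35, adjusted p = 0.0572). For AP-1 factors in RSL3-R against erastin-R, leaving out 1 library gave 3 to 5 genes passing.

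A required fold change of 2 left 2162, 1635 and 1674 of all genes in erastin-R, RSL3-R and the direct comparison, 2, 1 and 0 members, 3, 1 and 0 target genes, 0, 0 and 0 Hippo kinases and scaffolds, 1, 0 and 0 binding inhibitors, 1, 0 and 0 TEAD factors and cofactors, 1, 4 and 1 genes tied to ferroptosis, 1, 1 and 0 SRF and MRTF targets and 3, 3 and 0 AP-1 factors. At this threshold 975 genes were higher and 660 lower in RSL3-R cells, against 730 and 717 with quantile normalization, and 1111 and 563 in the direct comparison against 822 and 644.

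The replicate numbers did not pair the libraries: deviations from group means correlated by -0.0049 on average between same-numbered libraries (9 pairs) and 0.0026 between others (18 pairs), and 2 of 9 libraries correlated best with their own number. The fit with the replicate block called 7, 9 and 7 members and 8438, 7508 and 7614 of all genes. Not every second comparison of a named gene was checked this way. Among the gene values checked, this fit lost only FOS in the direct comparison (0.23, adjusted p = 0.0511). The cause of these changes was not tested. CDH1 had 6 to 59 counts a library, so its precision is limited by depth.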
